A study of Mus musculus with 4 samples.

Results

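The lectin-like receptors of natural killer (NK) cells were described as the 26 genes of 32285 measured whose symbols start with Klra, Klrb, Klrc, Klrd, Klre, Klrg, Klrh, Klri or Klrk. Of these, 11 were Klra genes, 5 Klrb, 3 Klrc, 2 Klrg and 2 Klri, with 1 each of Klrd, Klre and Klrk and 0 of Klrh. The rule used only the symbols and no measured value. Expression was measured by droplet-based single-cell RNA sequencing of mouse tumours grown from MC38b cells, derived from the MC38 colon carcinoma line. There were 4 libraries: 2 from mice given saline (PBS 1 and PBS 2), 1 from mice given anti-PD-1, and 1 from mice given anti-PD-1 and anti-TL1A, called the combination library. All groups received 2 doses and tumours were taken 24 h after the last. The labels state 2 animals for saline and 4 for a treated group, whose cells were pooled in equal numbers before sorting by CD45 and CD3, and leave it unstated if the PBS libraries came from separate mice. Strain and age of the mice are not given in the sources used here.

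Klra genes encode the Ly49 receptors, most of which bind MHC class I molecules. Inhibitory members restrain NK cells, whereas activating members such as Ly49D (Klra4) and Ly49H (Klra8) signal through the adaptor DAP12 (Tyrobp). CD94 (Klrd1) pairs with NKG2A (Klrc1, inhibitory), NKG2C (Klrc2) or NKG2E (Klrc3) and binds Qa-1. NKG2D (Klrk1) is an activating receptor for stress-induced ligands, the Klrb1 genes encode NKR-P1 receptors, among them NK1.1 (Klrb1c), and KLRG1 (Klrg1) is an inhibitory receptor that binds cadherins. T cells can express several of these receptors after activation.

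All 26 genes lie on chromosome 6 (GRCm38, GENCODE M21). Klra17 to Klra1 occupy 556 kb, from 129831154 to 130386874, and Klra2 lies 832 kb further on. The Klra genes are close copies, and reads near the 3′ end cannot always be assigned to one of them. The share of 31-base stretches in the last 500 bases that occurs in another gene was 70.2% for Klra9, 68.7% for Klrc1, 64% for Klra3, 63.6% for Klra10, 46.6% for Klra7, 45.5% for Klrc3, 44.5% for Klra8 and 26.4% for Klri1. It was 15.1% for Klra4, 14.7% for Klra5, 11.9% for Klra1, 11.5% for Klri2 and 11.1% for Klra6. Values of these genes are uncertain to that extent.

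The start regions of several Klra genes also resemble each other. RefSeq start regions (GRCm38.p6) were matched by symbol for 23 of the 26 genes. The stretch TTTCCTC was picked because several of the Klra sequences share it, so its count describes that choice and supports nothing. On both strands of the 250 bases before a start, it was present at 9 of 11 Klra genes, against 8.73% of 27025 genes. A match describes the letters and shows no binding. The 100 bases before the start are shown because these similar stretches belong to genes found in different cells below: Klra4 and Klra8 in NK cells, Klra4 also in CD45-negative cells, Klra2 in macrophages, Klra7 and Klra5 in NK and double-negative T cells, and Klra17 mainly in a cluster led by Siglech. Capitals mark TTTCCTC. All genes lie on the minus strand and are read 5′ to 3′.
Klra4, chr6:130067272-130067371: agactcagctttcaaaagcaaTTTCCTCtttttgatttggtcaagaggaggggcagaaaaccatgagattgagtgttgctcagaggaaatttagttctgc
Klra8, chr6:130129899-130129998: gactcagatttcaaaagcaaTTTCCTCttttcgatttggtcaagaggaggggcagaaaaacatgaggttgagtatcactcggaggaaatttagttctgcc
Klra17, chr6:129876673-129876772: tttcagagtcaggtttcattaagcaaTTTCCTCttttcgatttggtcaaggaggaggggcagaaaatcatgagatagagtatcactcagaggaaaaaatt
Klra2, chr6:131247363-131247462: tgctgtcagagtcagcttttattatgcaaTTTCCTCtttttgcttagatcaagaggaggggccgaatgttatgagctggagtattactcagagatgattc
Klra7, chr6:130233323-130233422: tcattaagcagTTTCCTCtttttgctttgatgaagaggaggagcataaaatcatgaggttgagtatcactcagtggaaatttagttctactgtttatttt
Klra5, chr6:129913225-129913324: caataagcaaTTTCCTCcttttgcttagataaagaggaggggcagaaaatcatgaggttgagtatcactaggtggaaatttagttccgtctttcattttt

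Klra7 and Klra8 each have 2 starts in RefSeq, and 1 of each is shown. Aligned over the 250 bases before the start, the regions of Klra4 and Klra8 were 84.5% identical, and that of Klra17 was 79.4% identical to Klra4. Those of Klra3 and Klra9 were 83.6% identical to each other and 39.7 to 57.2% identical to those of the other Klra genes except Klra7, whose shown start was not aligned. Whole windows were aligned, and in Klra3 and Klra9 TTTCCTC lies nearer the start than in the sequences shown. These low values therefore do not show that the regions are unrelated. For 3 other motifs, also searched on both strands, the T-box letters AGGTGTGA were found at 0 of the 23 genes (1.3% of all), the Runx letters TGTGGTT at 3 (5.08%) and the TCF letters CTTTGAT at 2 (3.72%).

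Values are counts of unique molecular identifiers (UMIs) summed over the cells of a class in a library, relative to all UMIs of that class and library (CPM). Cells were grouped without the 26 genes, and the classes were named from other markers. NK cells numbered 917 and 802 in the PBS libraries (PBS 1 first), 1582 in anti-PD-1 and 1830 in combination. In the same order there were 1246, 1110, 1947 and 2342 CD8 T cells and 303, 357, 429 and 534 conventional CD4 T cells. Regulatory T cells numbered 403, 368, 660 and 577, and T cells low in Cd4 and Cd8 (double-negative T cells) 651, 450, 754 and 966. Ncr1 and Foxp3 were among the naming markers, so their levels follow from the naming and do not check it. Ncr1 was 292 to 327 CPM in NK cells and at most 20.6 CPM in the T cell classes. Foxp3 was 385 to 522 CPM in regulatory T cells and at most 13.3 CPM in the others. The double-negative class held Cd8a at 48.9 to 65.1 CPM and Trdc, a gamma-delta T cell gene, at 137 to 184 CPM, so alpha-beta and gamma-delta T cells were not separated in it. One of its clusters (T21) had Trdc and Trgv2 among its leading genes, so double-negative cells are also described by cluster.

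Libraries shared cell barcodes: 673 between the PBS libraries, 1255 between PBS 1 and anti-PD-1 and 1778 between PBS 2 and anti-PD-1, against 21 to 39 between the combination library and each other one. The anti-PD-1 cells were also shallower, with a median of 4450.5 UMIs in NK cells against 5533 to 7301 elsewhere. Among NK cells 10 to 67 per library carried a shared barcode, and among CD8 T cells 16 to 99. Leaving these cells out kept 17 of the 18 treatment calls in the 5 lymphocyte classes described below, and the summed Klra level was then 1320, 1660, 1360 and 1640 CPM in NK cells, 537, 451, 482 and 643 CPM in double-negative T cells and 29.3, 18.1, 38.4 and 40.4 CPM in CD8 T cells.

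The 26 genes together were highest in NK cells, at 4189 to 5213 CPM, followed by double-negative T cells at 1377 to 1884 CPM and CD8 T cells at 1097 to 1698 CPM, which overlapped. The Klra genes separated the 3 classes. Their summed level was 1232, 1482, 1353 and 1646 CPM in NK cells, with the libraries in the order just given throughout. In double-negative T cells it was 532, 440, 481 and 641 CPM, and in CD8 T cells 33.2, 26.1, 38.6 and 40.4 CPM. Neither CD4 T cells, at 2.69 to 16.9 CPM, nor regulatory T cells, at 2.54 to 8.46 CPM, exceeded any CD8 value. The log2 ratio of NK over CD8 T cells was 5.38 ± 0.312 (SD, n = 4 libraries), a 41.6-fold difference, and that of double-negative over CD8 T cells 3.93 ± 0.195 (SD, n = 4), a 15.2-fold difference. These class differences are descriptions and carry no test. The NK over CD8 value was 4.55 when the receptor genes were used for clustering and 4.42 when no doublets were removed, and that of double-negative over CD8 T cells 3.57 and 3.24.

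**Figure D1:**
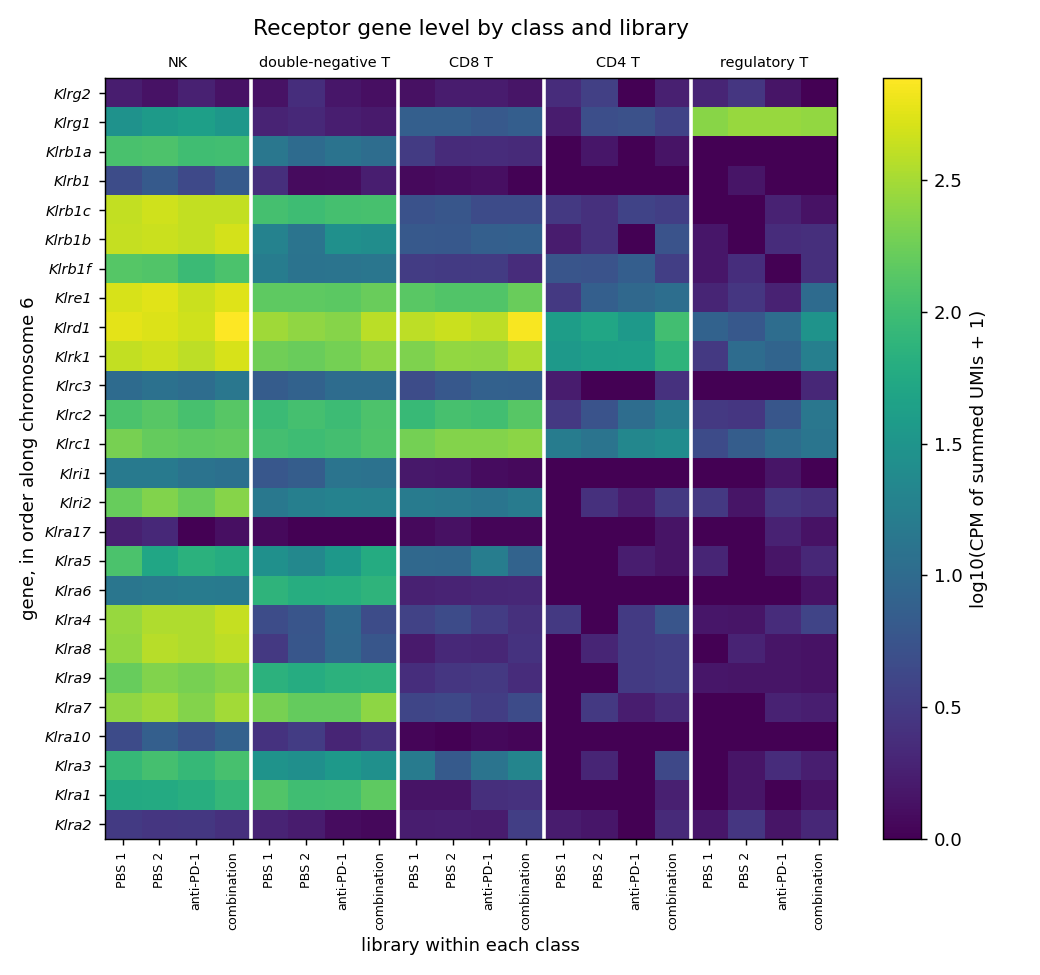
Level of the 26 receptor genes (rows, in order along chromosome 6) in each library (columns) of 5 classes, as log10 of CPM + 1 by colour. NK columns are bright over most rows, double-negative columns over part of the Klra rows, CD8 columns over Klrd1, Klrk1, Klrc1, Klrc2 and Klre1, and regulatory T cell columns over Klrg1.

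Counted gene by gene, 20 of 26 members were higher in NK than in CD8 T cells in every library without overlap, where 13.8% of the 17540 genes with at least 20 UMIs were, and 0 were lower (15.7% of all genes). The 6 that overlapped were Klrd1, Klrc2, Klrc1, Klrg2, Klra17 and Klra2. Against double-negative T cells, 17 were higher in NK cells (14.6% of all genes) and 2, Klra6 and Klra1, were lower (12.7%). Double-negative T cells exceeded CD8 T cells for 14 (12.2%) and fell below them for 3 (16.2%), Klrg1, Klrd1 and Klrc1.

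Among activating Ly49 genes, Klra4 in NK cells was 273, 346, 346 and 432 CPM and Klra8 was 265, 379, 349 and 399 CPM. Both were low in double-negative T cells: Klra4 was 3.68, 4.77, 8.77 and 3.7 CPM there and Klra8 2.02, 4.99, 8.52 and 4.93 CPM. The lowest NK value of each lay far above the highest double-negative value.

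Of the inhibitory Ly49 genes, Klra7 (Ly49G) was 254, 297, 225 and 307 CPM in NK cells and 196, 158, 160 and 248 CPM in double-negative T cells, and the 2 classes overlapped. Klra9 (Ly49I) was 162, 219, 195 and 230 CPM in NK cells and 70.1, 60.4, 70.9 and 72.4 CPM in double-negative T cells. Klra1 (Ly49A) ran the other way, with 55.9, 57.4, 63 and 82.4 CPM in NK cells against 127, 99.6, 101 and 149 CPM. Klra6 (Ly49F) was likewise lower in NK cells, at 12.5 to 14.8 CPM, than in double-negative T cells, at 61.7 to 74.6 CPM.

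**Figure D2:**
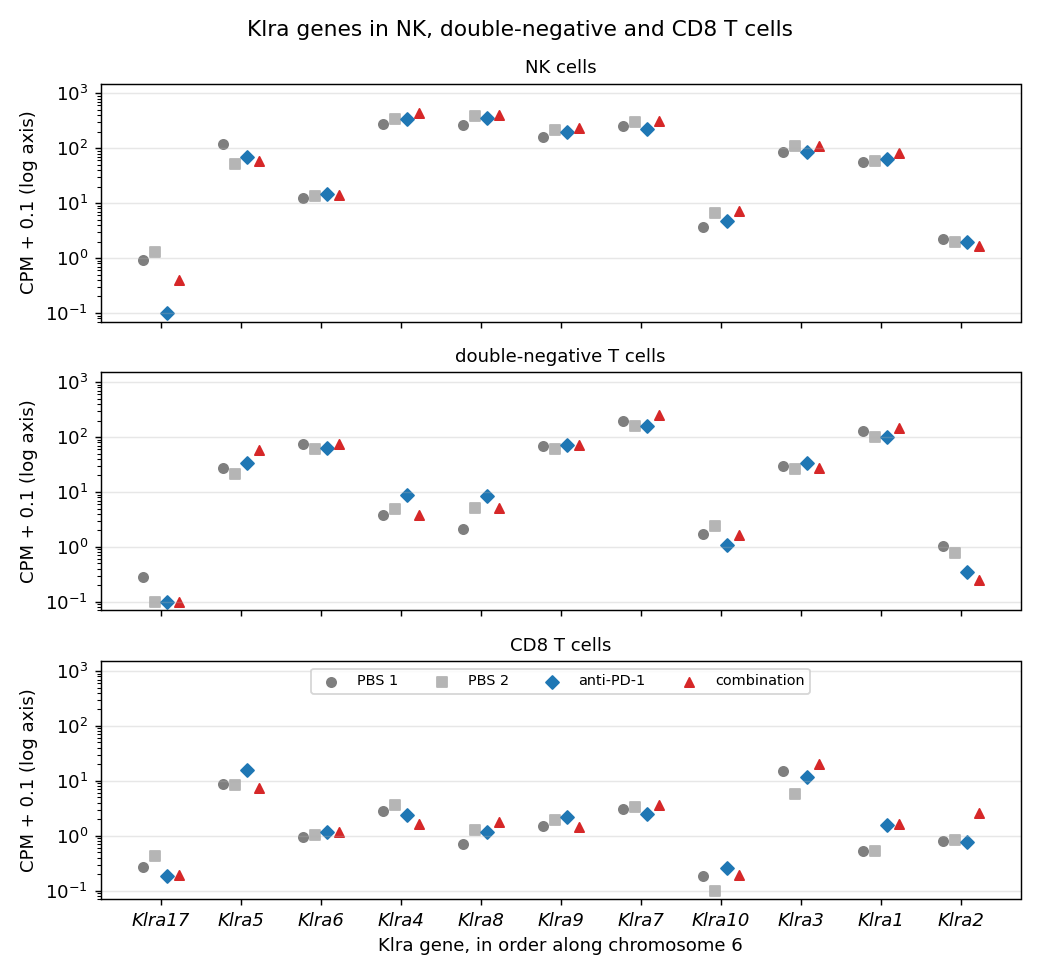
Level of each Klra gene, as CPM + 0.1 on a log axis, in NK (top), double-negative T (middle) and CD8 T cells (bottom). Points are libraries, with shapes and colours given in the legend. Klra4 and Klra8 are at 265 to 432 CPM in NK cells and at most 8.77 CPM in double-negative T cells, while Klra1 and Klra6 are higher in double-negative T cells in every library.

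Klra5 (Ly49E) in NK cells was 117, 50.6, 68.4 and 59.6 CPM, so PBS 1 stood above the other 3. Klra10, Klra17 and Klra2 were at most 6.97 CPM in NK cells. In CD8 T cells the Klra signal lay mainly in Klra3 (14.8, 5.62, 11.8 and 19.8 CPM) and Klra5 (8.54, 8.22, 15.6 and 7.22 CPM). Every other Klra gene was at most 3.61 CPM in CD8 T cells.

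Among the NKR-P1 genes, Klrb1c and Klrb1b were high in NK cells. Klrb1c was 421, 477, 416 and 419 CPM in NK cells, 107, 95.8, 107 and 112 CPM in double-negative T cells and at most 4.95 CPM in CD8 T cells. Klrb1b was 433, 450, 414 and 501 CPM in NK cells and 12 to 27.1 CPM in double-negative T cells. In NK cells Klrb1a was 99.6 to 120 CPM, Klrb1f 91.4 to 133 CPM and Klrb1 only 3.72, 5.63, 3.38 and 5.52 CPM. The 5 Klrb genes summed to 1024 to 1178 CPM in NK cells and 12.8 to 14.2 CPM in CD8 T cells.

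The CD94 and NKG2 genes were shared by NK and CD8 T cells. Klrd1 was 591, 548, 478 and 771 CPM in NK cells and 394, 448, 394 and 726 CPM in CD8 T cells, and the classes overlapped. Klrc1 was 194, 159, 149 and 155 CPM in NK cells and 190, 225, 226 and 243 CPM in CD8 T cells. Klrc2 was 115, 137, 110 and 138 CPM in NK cells and 88.1, 110, 101 and 137 CPM in CD8 T cells. For both NKG2 genes the classes overlapped, and Klrc3 was at most 12.9 CPM in either. Klrk1 was higher in NK cells, at 419, 464, 392 and 517 CPM, than in CD8 T cells, at 210, 259, 253 and 344 CPM. Klre1, whose product forms receptors with those of the Klri genes, was 520, 565, 452 and 554 CPM in NK cells and 125 to 167 CPM in CD8 T cells. Klri2 was 163, 220, 166 and 230 CPM in NK cells and at most 18 CPM in the other classes.

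Conventional CD4 T cells held few of the genes. Klrd1 was 39.7, 49.9, 34.2 and 103 CPM and Klrk1 34.4, 40.9, 41.2 and 75 CPM, and combination was the highest library for both. In regulatory T cells Klrg1 was the highest member, at 237, 279, 279 and 259 CPM. Klrg1 was 0.674 to 4.19 CPM in conventional CD4 T cells, 5.42 to 6.47 CPM in CD8 T cells and 29 to 41.9 CPM in NK cells. A Klrg1 UMI was found in 43.3 to 53.8% of regulatory T cells, and in 27.5 to 35.4% at 2000 UMIs per cell. Of the 26 members it was the 1 that was higher in regulatory than conventional CD4 T cells without overlap (14.9% of all genes), and 4 were lower (9.14%).

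To compare single cells at equal depth, cells were thinned to 2000 UMIs, and shallower cells were left out: 9, 7, 120 and 47 NK cells, 7, 3, 25 and 15 double-negative, 11, 11, 135 and 41 CD8 and 21, 3, 81 and 39 regulatory T cells. A UMI of any Klra gene was then found in 72.8% (95% exact Clopper-Pearson interval 69.8 to 75.7), 76.4%, 73.6% and 77.2% of NK cells, in 40.5 to 52.3% of double-negative T cells and in 2.37 to 5.17% of CD8 T cells. Without thinning, the shares were 80 to 84.3%, 58.5 to 68.1% and 8.47 to 12.5%. Regulatory T cells are given for background from free RNA, at 0.548 to 1.86% after thinning, against 2.37 to 5.17% of CD8 T cells. Before thinning, their median depths were 3155.5 to 5346.5 UMIs against 5403 to 9597 UMIs in CD8 T cells. At 2000 UMIs, NK cells held on average 1.41, 1.62, 1.52 and 1.7 different Klra genes per cell and double-negative T cells 0.671, 0.575, 0.643 and 0.79. At least 3 genes were found in 20.5 to 28.7% of NK cells and in 3.13 to 4.73% of double-negative T cells.

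**Figure D3:**
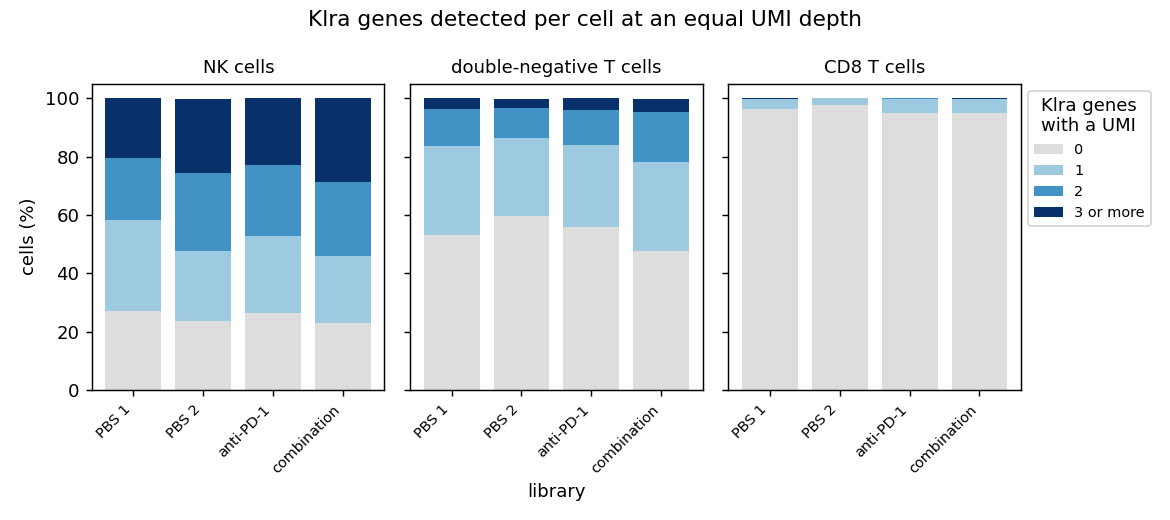
Share of cells with 0, 1, 2 or at least 3 Klra genes having a UMI, for each library of 3 classes, in cells with at least 2000 UMIs, thinned to 2000. Cells with 0 are 22.8 to 27.2% of NK cells, 47.7 to 59.5% of double-negative T cells and 94.8 to 97.6% of CD8 T cells.

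Klra4 and Klra8 were detected together in many NK cells. At 2000 UMIs, Klra8 was detected in 51.2, 50, 53.9 and 51.6% of the cells with Klra4 and in 21, 32.5, 26.1 and 26.7% of the cells without it. Klra7 was likewise more frequent among cells with Klra4, at 36.4 to 46.2% against 22.2 to 27.8%. Klra4 and Klra7 share 31-base stretches near the 3′ end, and the part of such reads in these shares was not tested. For Klra3 the shares overlapped, at 12.2 to 17.1% among cells with Klra7 and 10.7 to 15.4% among cells without. Cells of 1 library share its depth and NK subsets, so these shares are descriptions.

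The NK clusters had different levels of these genes. Cluster values are descriptions, pooled over libraries. In the cluster led by Gzma, Itga2 and Serpinb9b, Klra4 was 808 and Klra8 734 CPM over all libraries. In the cluster led by the granzyme genes Gzmc, Gzmd and Gzme, they were 78.3 and 121 CPM, whereas Klra5 was 149 CPM there against 20.2 CPM and Klrb1b 577 against 403 CPM. The double-negative clusters differed as well: the cluster led by Zbtb16 held Klra9 at 338 and Klra5 at 166 CPM, and the cluster led by Trdc and Ly6c2 held Klra7 at 310 and Klra1 at 179 CPM with Klra9 at 47 CPM. Zbtb16 encodes the transcription factor PLZF of innate-like T cells. The clusters led by Sidt1 (T4) and by Ifit3 (T5) held Klra genes at 241 and 328 CPM in sum. These clusters also held Cd8b1 at 149 and 104 CPM and Cd8a at 84 and 93 CPM, so they are not clearly negative for CD8.

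Outside lymphocytes Klra2 and Klra4 stood out, which were picked after their values were seen. Monocytes and macrophages held Klra2 at 291, 300, 288 and 348 CPM, and 73.8 to 86.9% of them had a UMI. Its level in the 5 lymphocyte classes was at most 2.47 CPM. CD45-negative cells, which hold tumour and stromal cells, held Klra4 at 118, 115, 127 and 159 CPM with Klra8 at 0.151 to 0.263 CPM. These cells were deep, with medians of 38368.5 to 69017 UMIs. Klra4 was found in 66.4 to 89.6% of them, and in 15.9 to 26.2% once thinned to 2000 UMIs (4, 25, 56 and 5 shallower cells left out), against 26.4 to 37.8% of NK cells. Of the CD45-negative cells of PBS 1, 352 of 375 shared a barcode with another library and 1 of 548 did in combination, and without those cells Klra4 was 87, 93.7, 120 and 159 CPM. In combination against PBS, Klra4 rose in these cells by log2 0.49 ± 0.129 (SE, edgeR adjusted p = 0.00744), as 1 of 9 tested members (3.29% of all genes); the test was run with the shared barcodes kept.

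**Figure D4:**
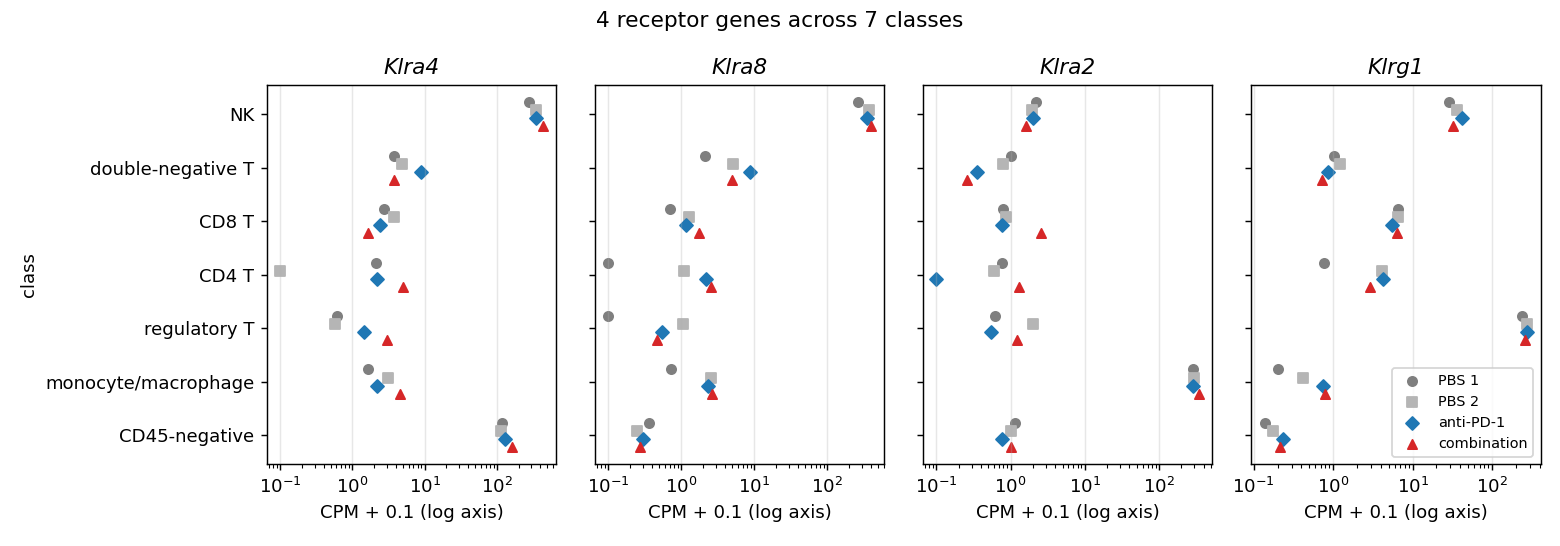
Level of Klra4, Klra8, Klra2 and Klrg1 (panels) as CPM + 0.1 on a log axis in 7 classes, with 1 point per library. Klra4 is high in NK and CD45-negative cells, Klra8 in NK cells, Klra2 in monocytes and macrophages, and Klrg1 in regulatory T cells, with NK cells next at 29 to 41.9 CPM.

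The treatment comparisons asked which receptor genes differed between libraries within a class. Each treated arm was 1 library, so edgeR's quasi-likelihood test took the spread from the PBS pair. That spread was shared over genes, so for most genes the gene's own PBS difference had little weight in its p-value. The p-values measure only the spread between libraries, and the treated ones are taken to be as variable as PBS. Comparisons with PBS share the PBS libraries, and combination against anti-PD-1 compares 2 libraries. In the 5 lymphocyte classes, 18 combinations of gene, class and comparison passed adjusted p below 0.05, and 17 of them were higher in the first-named library. The members tested and the share over all genes are given by class below. The split by direction over all genes is not given, here or for NK clusters low in Itga2. The direction of the calls is therefore not read as a trait of the receptors. Counts at unadjusted p below 0.05 also stand without the share over all genes and describe the members alone. Of these 18, 13 were lost in one fit of 5 classes and 11 when receptor genes were used for clustering. DESeq2 called 2 members in CD8 T cells for combination against PBS, 1 in CD8 T cells for combination against anti-PD-1 and 0 in the other class comparisons. It gave no adjusted p for any of the Klra5 calls, so it neither kept nor lost them. The 1 member it called in CD8 T cells against anti-PD-1 was a gene other than Klra5.

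In NK cells, 1 of 25 tested members passed for combination against PBS (0.687% of all genes), Klra1, which rose by log2 0.53 ± 0.143 (SE, adjusted p = 0.0335). Its 82.4 CPM exceeded both PBS values, 55.9 and 57.4. The call was lost without shared barcodes, at log2 0.42 and adjusted p = 0.742. Against PBS, 0 members passed in the anti-PD-1 library (0.806% of all genes), with 3 at unadjusted p below 0.05, and against anti-PD-1 0 passed in combination (1.16%), with 4. With only clusters low in Itga2, 7 of 24 members passed for combination against PBS, 6 of them higher, where 361 of 12319 genes did, and 4 for anti-PD-1 against PBS, all higher, where 430 of the genes did. The median member change in NK cells was log2 -0.08 for anti-PD-1 and 0.15 for combination against PBS, where all genes had -0.01 and -0.02. The mix of NK clusters differed between libraries. Of the 917, 802, 1582 and 1830 cells, the cluster led by Itga2, Gzma and Eya1 held 102, 181, 111 and 270. The cluster led by Gzma, Itga2 and Serpinb9b held 211, 222, 365 and 545. The part of this mix in the NK changes was not tested.

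In CD8 T cells, Klrd1 was higher in combination than in PBS, by log2 0.80 ± 0.134 (SE, adjusted p = 0.0126), as was Klrk1, by 0.57 ± 0.122 (SE, adjusted p = 0.042). These were 2 of 21 tested members (1.46% of all genes). Without the Ccr7-led clusters the Klrk1 call was lost and the Klrd1 call was kept. The mix of CD8 clusters differed between libraries. Cluster T3, with Lef1, Tcf7 and Ccr7 among its leading genes, held 340, 231, 280 and 182 of the 1246, 1110, 1947 and 2342 cells. The part of this mix in the Klrd1 and Klrk1 changes was not tested. Klrd1 was 394, 448, 394 and 726 CPM, with combination above the others. Klrc2, Klre1 and Klrc1 had changes of 0.48, 0.33 and 0.24 and did not pass (edgeR adjusted p = 0.0643, 0.219 and 0.379). In the anti-PD-1 library 1 of 21 passed (1.45%), Klra5, higher by 0.99 ± 0.201 (SE, adjusted p = 0.0344). Klra5 was lower in combination than in anti-PD-1, at log2 -1.20 ± 0.23 (SE, adjusted p = 0.0431), as 1 of 21 (0.466%). Its cells were few: 19, 12, 41 and 37 CD8 T cells had a Klra5 UMI. Neither Klra5 call held when receptor genes were used for clustering, and at a finer resolution 0 members passed in CD8 T cells for any of the 3 comparisons.

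In double-negative T cells Klra5 had the lowest adjusted p. Against PBS, 4 of 21 tested members rose in combination (2.95% of all genes): Klra5 by log2 1.23 ± 0.17 (SE, adjusted p = 3.31e-09), Klrd1 by 0.45, Klrk1 by 0.45 and Klra7 by 0.44 (adjusted p = 0.0105, 0.0132 and 0.0148). The Klra7 value was 0.28 without PBS 2 and 0.64 without PBS 1. Klra5 was 27.2, 21.6, 33.3 and 59.3 CPM, with combination above every other library. Against anti-PD-1, Klrd1, Klra5 and Klra7 rose by 0.69, 0.75 and 0.55 (3 of 21, 1.55%, adjusted p = 0.000848, 0.025 and 0.0171). In the anti-PD-1 library Klrb1b rose by 0.86 ± 0.227 (SE, adjusted p = 0.0222), as 1 of 21 (1.35%). By cluster, Klra5 in T21, led by Trdc and Ly6c2, was 10.8, 13.2, 30.3 and 61.6 CPM, and rose by log2 2.33 in combination and 1.41 in anti-PD-1 against PBS (edgeR adjusted p = 3.27e-07 and 0.0205). In the Zbtb16-led cluster T14 it was 158, 133, 121 and 226 CPM, with a change of 0.63 in combination against PBS (adjusted p = 0.794). Klra7 rose by 0.87 in the Sidt1-led cluster T4 (adjusted p = 0.00025), where it was 80.9, 74.7, 82.5 and 147 CPM. Without the clusters T4 and T5, 1 member passed against PBS in combination and 0 in anti-PD-1. The mix of clusters differed between libraries. Cluster T4 held 247, 189, 271 and 299 of the 651, 450, 754 and 966 double-negative cells, and T21 held 268, 160, 304 and 421. Cd8b1 in the class was 89.9, 103, 54.4 and 59.8 CPM. The part of this mix in the class changes was not tested.

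**Figure D5:**
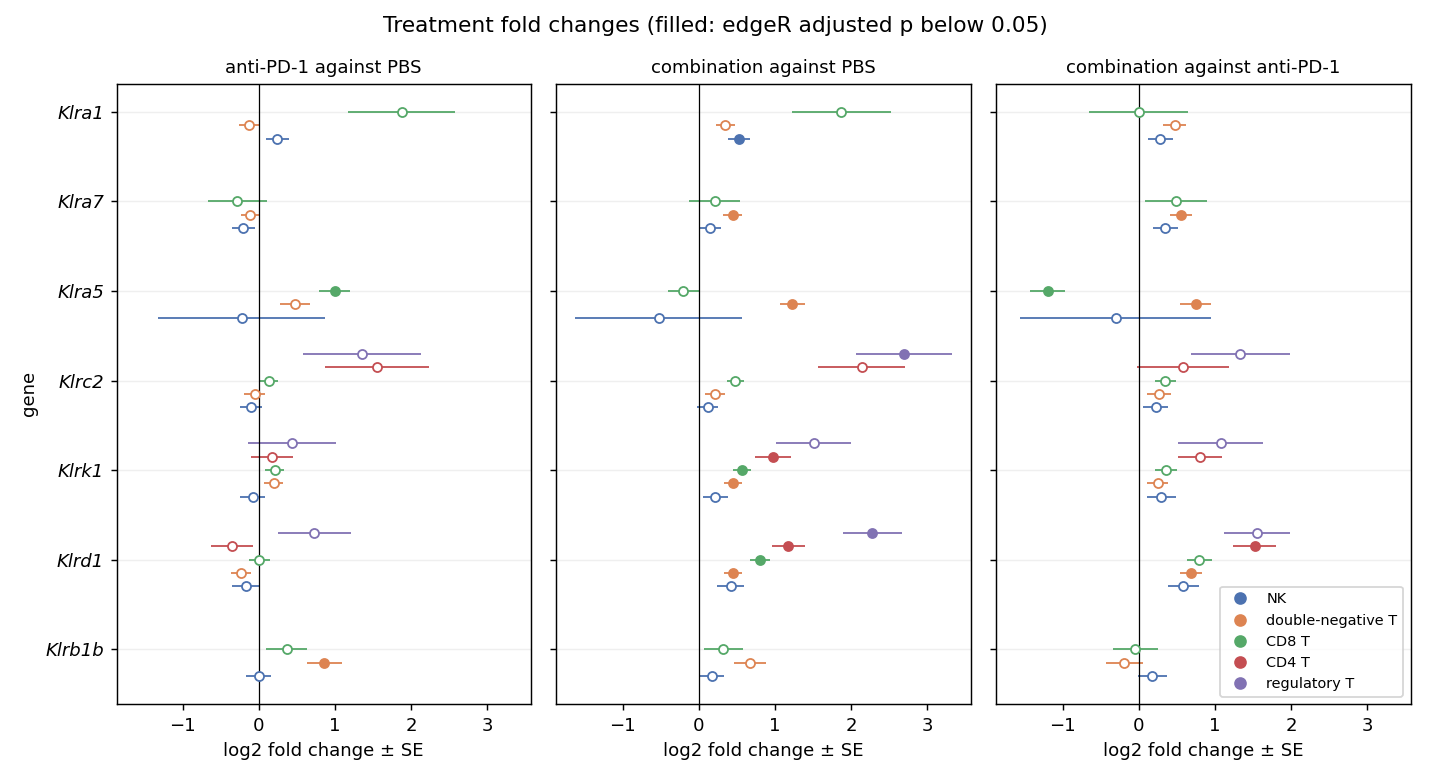
Fold changes (log2, with SE) of the 7 members that passed a treatment test in the 5 lymphocyte classes, for 3 comparisons (panels) and 5 classes (colours), with filled points at edgeR adjusted p below 0.05. Klrd1 points for combination against PBS lie right of 0 in all 5 classes and are filled in 4 of them.

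Conventional CD4 T cells of the combination library had higher Klrd1, by log2 1.18 ± 0.217 (SE, adjusted p = 0.000112), and Klrk1, by 0.98 ± 0.232 (SE, adjusted p = 0.0145), which were 2 of 6 tested members (0.211% of all genes). Against anti-PD-1, Klrd1 was higher by 1.53 (1 of 6, 0.292%, adjusted p = 9.36e-05). A Klrd1 UMI was found in 26, 41, 38 and 104 CD4 T cells. Regulatory T cells of the combination library had higher Klrd1, by 2.28 ± 0.385 (SE, adjusted p = 0.000134), and Klrc2, by 2.69 ± 0.632 (SE, adjusted p = 0.0253), 2 of 6 tested members (0.282%). These counts were low, with 40 of 577 regulatory T cells holding Klrd1 in combination against 5 and 8 in the PBS libraries. Klrc2 had 4, 4, 11 and 35 UMIs and passed the count filter only through the treated libraries. Its test and the number of members tested thus depend in part on where it is high. Against anti-PD-1, 0 of 6 passed in regulatory T cells (0.272%), with 3 at unadjusted p below 0.05. For anti-PD-1 against PBS, 0 of 6 passed in CD4 T cells (0.412%) and 0 of 6 in regulatory T cells (0.357%), with 1 and 0 at unadjusted p below 0.05.

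Klrd1 was also higher in combination in cells that should lack it. It was 2.76, 2.65, 5.7 and 8.53 CPM in monocytes and macrophages, with a change against PBS of log2 1.68 (adjusted p = 0.0027), as 1 of the 3 of 19 tested members that passed (2.38% of all genes). The others were Klrb1b, by log2 1.31 (edgeR adjusted p = 0.0421), and Klrk1, by 0.81 (edgeR adjusted p = 0.0127). Of the 19, 17 had a positive change, with a median of log2 0.80, and 10 had unadjusted p below 0.05. These values are not given for all genes in this class, so they are not read as a result about the members. For anti-PD-1 against PBS, 1 of 19 members passed in monocytes and macrophages (5.48%), Klra17, at log2 -1.5, and 0 of 19 passed for combination against anti-PD-1 (1.72%), with 2 at unadjusted p below 0.05 in edgeR. In CD45-negative cells Klrd1 was 0.601, 0.755, 0.866 and 1.69 CPM, with a change of 1.38 that did not pass (adjusted p = 0.19). There, 0 of 9 members passed for anti-PD-1 against PBS (5.75%) and 0 of 9 for combination against anti-PD-1 (4.69%), with 0 at unadjusted p below 0.05 in both by edgeR. Cd8a was 7.62, 4.24, 11.2 and 23.9 CPM in regulatory T cells, also highest in combination. The part of these levels in the changes of CD4 and regulatory T cells was not tested.

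The changes were compared between classes in 1 model. For NK against CD8, double-negative against CD8 and NK against double-negative T cells, 0 of 25 members passed for any of the 3 comparisons by edgeR, with 0 to 4 at unadjusted p below 0.05. Of all genes, 0 to 0.014% passed for anti-PD-1 against PBS and 0% for combination against anti-PD-1. For combination against PBS, 0.0351% passed for NK against CD8, 0.0281% for double-negative against CD8 and 0.00702% for NK against double-negative T cells. The difference for Klra5 between double-negative and CD8 T cells in combination against anti-PD-1 was log2 1.94 ± 1.06 (SE, adjusted p = 1). The difference between classes was thus not detected at this replication.

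The other genes of the pathway came from lists written with earlier results known. Of the adaptor and signalling list, 21 were tested in NK cells and 0 passed in any of the 3 comparisons, with a median of log2 0.14 for anti-PD-1 and 0.05 for combination against PBS. In CD8 T cells 2 of 19 rose in combination against PBS, Sh2d1a by 0.51 and Lat2 by 0.50. In double-negative T cells Tyrobp rose by 0.54 in the anti-PD-1 library and Fcer1g by 0.47 in combination, 1 of 20 each. Of the ligand list, H2-M3, an MHC class Ib gene, fell by 0.79 in NK cells of the anti-PD-1 library and was higher by 1.25 in combination than in anti-PD-1. Each was 1 of 11 tested (0.806% and 1.16% of all genes). In combination against anti-PD-1, 1 gene of this list also rose in CD8, regulatory T, monocyte and macrophage, and CD45-negative cells. In CD4 and double-negative T cells 0 did. Those genes are not named here, so the H2-M3 change is not shown to be particular to NK cells. Of the other NK receptors, Lag3 rose by 0.70 and Ly6c2 by 0.84 in NK cells of the anti-PD-1 library, 2 of 20 tested. Of the cytotoxic effectors, 6 of 13 rose in CD8 T cells of combination against PBS, among them Gzmb by 1.39 and Prf1 by 1.11, where 1.46% of all genes passed, and 0 of 13 passed in NK cells. The same list also rose outside lymphocytes in that comparison, for 6 of 13 genes in monocytes and macrophages (median log2 1.24) and 8 of 11 in CD45-negative cells (median 1.57). Of the genes of NK and ILC1 state, 0 of 24 passed in NK cells in any of the 3 comparisons.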

How the data were processed

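The authors deposited unnormalized UMI counts per gene and barcode for 4 libraries. The file headers name Cell Ranger 7.1.0, while version 3.0.2 and mm10 appear in the submitters' processing notes; the handling of intronic reads is unknown. Libraries held 6448 to 13231 barcodes and 78648222 to 142600208 UMIs. CD3-positive, CD3-negative and CD45-negative fractions were remixed 9:9:2 before loading, per the labels' protocols, so class sizes are not compared.

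Barcodes needed 200 genes and less than 15% mitochondrial UMIs. Because Scrublet's own threshold marked no more than 0.0304% of a library, the top scores were removed instead, at 0.8% per 1000 barcodes (324 to 1364 cells). Clustering used scanpy 1.11.5 and igraph 0.11.9 (Leiden, 2000 variable genes, receptor genes left out), and marker thresholds such as 100 CPM were set after seeing the data. Clusters with a median below 2000 UMIs, with 2 lineages or in cycle stayed out of the classes. Class sums of 4 libraries were fitted by edgeR 4.0.16 (R 4.3.3, TMM, filterByExpr minimum 10, quasi-likelihood test, 1 residual degree of freedom). Benjamini-Hochberg adjustment was made per class and comparison, with a threshold of 0.05. Treated groups had 1 library, so a gene could pass the count filter through 1 library alone. In simulated data for combination against PBS, 2-fold changes were recovered for 85.1% of changed genes in NK cells (13260 genes) and 76.1% in double-negative T cells (12023 genes), and 1.5-fold changes for 17.9% and 31.3%. Changed genes were drawn only from those above a minimum mean count, and all genes and libraries had the same dispersion. Recovery of low-count genes, and recovery in CD8, CD4 and regulatory T cells, was not simulated. DESeq2 1.42.0 was an alternative.

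Members with at least 20 UMIs over the 5 classes, which all 26 had, were described, in full for the 12 with the highest CPM in any class and those that passed a treatment test. Non-members came from 5 lists, and not every list gene that passed is reported here. Members and lists were chosen with earlier results of these data known. Intervals cover counting error only. Replicate libraries may be technical.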

Additional observations from a re-analysis of the deposited data

Results flagged for a closer look

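Klra17, the gene of Ly49Q, appeared in clusters that no comparison used. It reached 202 CPM (157 UMIs in 92 cells) in a cluster led by Siglech, Ccr9 and Ly6d, which are plasmacytoid dendritic cell genes. It was 26.8 CPM (31 UMIs in 438 cells) in a cluster led by S100a9 and S100a8, 20.5 CPM (67 UMIs in 395 cells) in one led by Cd209a, Pkib and H2-Eb1, and 16.6 CPM (25 UMIs in 90 cells) in one led by Cd209a and Wdfy4. Each was at least 3 times its highest class mean, 5.29 CPM. The first cluster also held Klrd1 at 300 CPM. These levels were not tested. The 3-fold threshold was set after seeing the data.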

How the results depend on the processing

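Of the 18 calls in the 5 lymphocyte classes, 0 reversed under any alternative. They lost significance in 13 cases in one fit for 5 classes, in 12 of the 14 with an adjusted p in DESeq2, in 11 when receptor genes were used for clustering, 8 with no doublets removed, 5 at a resolution times 1.5, 3 with no filter on low counts, 3 with thinned sums, 2 with cycling clusters kept, 1 with library totals only and 0 with low-UMI clusters kept; the cause was not tested. The calls without an adjusted p in DESeq2 were those of Klra5. Number of receptor genes that passed, with the main number first. For anti-PD-1 against PBS, CD8 T cells had 1, and 0 with DESeq2, receptor genes used for clustering, finer resolution, one fit or cycling clusters kept, and 2 with low-UMI clusters kept, no doublets removed or shared barcodes left out. Double-negative T cells had 1, and 0 with DESeq2, no filter, receptor genes used for clustering, one fit or without Cd8-positive clusters. NK cells had 0, and 4 in clusters low in Itga2.

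For combination against PBS, CD8 T cells had 2, and 5 with no filter or thinned sums, 4 with library totals, 1 with receptor genes used for clustering, one fit or without Ccr7-led clusters, 0 at finer resolution, 9 with no doublets removed and 6 with shared barcodes left out. Leaving shared barcodes out also raised the CD8 number over all genes, from 207 to 999. For anti-PD-1 against PBS it rose from 205 to 998. The rise in members was thus part of a general one. Double-negative T cells had 4, and 5 with library totals, 6 at finer resolution, 0 with DESeq2 or one fit, and 1 with receptor genes used for clustering, no doublets removed or without Cd8-positive clusters. NK cells had 1, and 0 with DESeq2, no filter, library totals, receptor genes used for clustering, one fit or shared barcodes left out, and 7 in clusters low in Itga2. CD4 T cells had 2, and 3 with library totals, 0 with DESeq2 and 1 with no filter, thinned sums, receptor genes used for clustering, finer resolution, no doublets removed or one fit. Regulatory T cells had 2, and 0 with DESeq2, 1 with thinned sums, 3 with no filter, finer resolution, no doublets removed or shared barcodes left out, and 4 with cycling clusters kept.

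For combination against anti-PD-1, CD8 T cells had 1, and 2 with no filter, low-UMI clusters kept, no doublets removed, shared barcodes left out or without Ccr7-led clusters, 3 with library totals or thinned sums, and 0 with receptor genes used for clustering or finer resolution. Double-negative T cells had 3, and 4 with library totals, thinned sums or finer resolution, 0 with DESeq2, no doublets removed or one fit, and 1 with receptor genes used for clustering or without Cd8-positive clusters. CD4 T cells had 1, and 0 with DESeq2. NK cells had 0, and 1 in clusters with Itga2 and 2 in those low in it. Regulatory T cells had 0, and 1 with receptor genes used for clustering, 2 at finer resolution or with cycling clusters kept, and 3 with no doublets removed. Over all genes, the number that passed in combination against PBS was 92 in NK cells (4 to 361 over the alternatives), 207 in CD8 (39 to 999), 359 in double-negative (14 to 379), 21 in CD4 (0 to 40) and 30 in regulatory T cells (0 to 96). For anti-PD-1 against PBS these numbers were 108 (8 to 430), 205 (24 to 998), 164 (3 to 164), 41 (0 to 57) and 38 (0 to 147), and for combination against anti-PD-1 156 (10 to 483), 66 (7 to 429), 189 (11 to 218), 29 (1 to 47) and 29 (2 to 100).

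The log2 ratio of summed Klra genes was 5.38 for NK over CD8 T cells, and 4.55 with receptor genes used for clustering, 4.42 with no doublets removed, 6.02 in NK clusters with Itga2 and 4.74 in those low in it. For double-negative over CD8 T cells it was 3.93, and 3.57, 3.24 and, without Cd8-positive clusters, 4.41. Leaving out 1 library gave 5.23 to 5.46 and 3.88 to 4.02. The share of cells with a Klra UMI was 82.5% in NK, 63.6% in double-negative and 9.91% in CD8 T cells, and 63.9, 32.8 and 2.15% at 1000 UMIs or 75, 45.9 and 4.04% at 2000. Fits without 1 PBS library have no residual degree of freedom and gave fold changes only; 4 calls, all in double-negative T cells, then moved by more than their SE. Without PBS 1 and without PBS 2, in that order, these were log2 1.26 and 0.59 for Klrb1b in anti-PD-1 against PBS, and in combination against PBS 0.61 and 0.32 for Klrd1, 1.45 and 1.06 for Klra5 and 0.64 and 0.28 for Klra7. The fit of only 2 groups was not run for combination against anti-PD-1. No paired analysis was possible because each treated group has 1 library and shares fewer than 2 replicate numbers with PBS. With 1 library per treated group, library and treatment cannot be told apart. The settings on shared barcodes, Itga2, Ccr7 and Cd8 were chosen after seeing the data.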
